A study of Homo sapiens with 6 samples.

Results

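The plasminogen activator system is described here by 6 genes chosen by name for their known roles, out of 58219 genes listed in the count files: the proteases PLAU and PLAT, the receptors PLAUR and ANXA2, the inhibitor SERPINE2 and the clearance receptor LRP1. All 6 passed the filter on low counts that left 14239 genes to test. RNA was measured by stranded poly(A) sequencing in SNU-387, an established human cell line from a pleomorphic hepatocellular carcinoma. The comparison asks how these genes differ after a short hairpin RNA, which directs the breakdown of matching transcripts, has lowered YES1, an SRC-family tyrosine kinase. The control group (shNT, 3 libraries) is a stable line expressing a non-target hairpin, and the other group (shYES1, 3 libraries) is a stable line expressing a hairpin against YES1. All libraries therefore come from cells of the same origin that carry a hairpin construct. The labels do not say whether the lines are clones, how many hairpins were used or whether the libraries of a group come from separate cultures. The p-values therefore reflect only how much these libraries vary, and that variation may be technical.

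Plasminogen is a liver-made precursor that circulates in blood, and cutting it yields plasmin, a protease that degrades fibrin and extracellular matrix. The urokinase protein uPA (PLAU) and the tissue activator tPA (PLAT) make that cut, uPA mostly at cell surfaces bound to its receptor uPAR (PLAUR), and tPA mostly on fibrin and on surface receptors such as annexin A2 (ANXA2). Serpins such as protease nexin-1 (SERPINE2) trap the activators, and LRP1 takes the trapped complexes into the cell. High uPA and uPAR are known features of invasive tumours.

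Libraries held 11290889 to 18944148 reads in genes. YES1 itself fell from 179.5 ± 1.65 to 44.1 ± 1.70 CPM (SD, n = 3 in each group, here and for every mean ± SD below), where CPM is a gene's reads relative to its library's total, on a common scale set by TMM factors, so the labels hold for the targeted gene. Of 15 hepatocyte markers 4 were expressed enough to test (KRT8, KRT18, SERPINA1 and TF), while ALB had 1 read over the shNT libraries and 1 over the shYES1 libraries and HNF4A had none, so the defining markers of hepatocytes were near 0. All 10 mesenchymal and fibroblast markers were tested. Their summed level was 31729 to 34582 CPM in shNT and 23474 to 23579 CPM in shYES1, most of it FN1. The lower sum follows FN1, which fell from 26242 ± 1325 to 15914 ± 75.5 CPM. The markers did not move together: at an edgeR adjusted p under 0.05, 4 rose, COL1A1 and COL1A2 among them, and 6 fell. The summed level of the 15 hepatocyte markers was 784 to 796 CPM in shNT and 1089 to 1112 CPM in shYES1, most of it KRT8 and KRT18. The 8 endothelial markers summed to 25.6 to 27.1 CPM in shNT and 25.7 to 26.3 CPM in shYES1. Of the 4 endothelial markers tested, 2 rose, 1 fell and 1 did not pass. The 8 leukocyte markers summed to 43.1 to 46.8 CPM in shNT and 37.7 to 40.5 CPM in shYES1, nearly all of it CD14. The part of these marker differences in the results below was not tested. In bulk RNA, fewer cells of a type and less RNA per cell cannot be told apart.

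In shYES1 cells, the urokinase gene PLAU fell most of the 6, 2.84-fold, and the inhibitor gene SERPINE2 fell 1.89-fold. PLAT, ANXA2 and LRP1 rose, by 1.53-fold, 1.29-fold and 1.15-fold, and the receptor gene PLAUR did not pass the test. Calls are at an edgeR adjusted p under 0.05 over all genes tested. Of the 6 members 3 rose, 2 fell and 1 did not pass. Across all 14239 genes 65.3% passed, 32.5% higher and 32.8% lower, so a count of 5 called members is read against a background in which most genes were called. Of all calls 49.7% were higher, and with library-size scaling 60.7%. PLAU was the only member both called and at least 2-fold different, as were 8.72% of all genes. The groups did not overlap for 5 of the 6 members, and for 67.9% of all genes. The median log2 fold change was 0.11 over the members and -0.0047 over all genes.

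**Figure D1:**
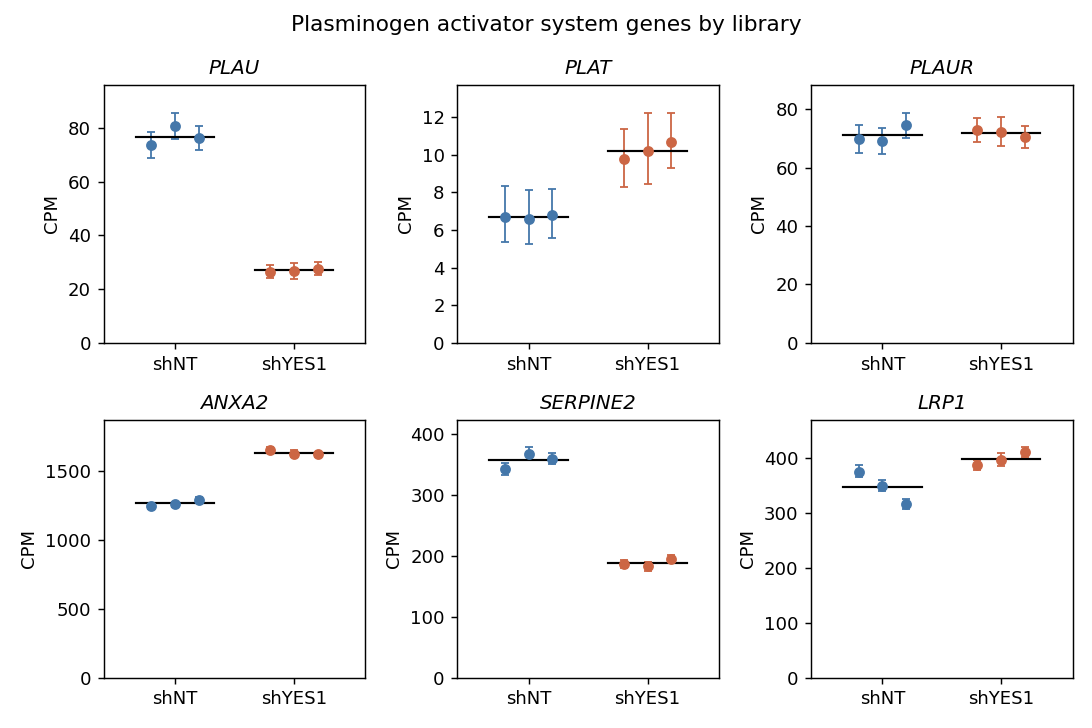
CPM of each gene (vertical axis, from 0) in each library, in blue for shNT and in orange for shYES1, with exact 95% Poisson intervals of the read counts as bars and the group mean as a line. PLAU and SERPINE2 lie lower in every shYES1 library, PLAT, ANXA2 and LRP1 lie higher, and the PLAUR libraries of the groups overlap.

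The sequence CCTTTC was searched in annotated 3' UTRs, on the transcript strand, because earlier work on these data had linked it to lower values in shYES1, so it was chosen with these data in view. It was present in the 3' UTR of at least 1 annotated transcript of 47.4% of the tested genes with an annotated 3' UTR of at least 50 bases. Those 5645 genes had a median log2 fold change of -0.08, with 43.9% called lower and 30.7% higher. The 6261 genes without it had a median of 0.09, with 26.0% called lower and 42.1% higher. Among the members, PLAU, SERPINE2 and PLAT held 1 copy in the transcript with the longest coding part, LRP1 held it only in another annotated transcript, and PLAUR and ANXA2 held none. The members that fell thus both held a copy, but so did PLAT, which rose. By the measure used for all genes, a copy in at least 1 annotated transcript, LRP1 held it too and also rose. The sites of the members that fell are shown 5′ to 3′ as the transcript reads, from GENCODE release 29 transcripts on GRCh38, with the searched sequence in capitals. The PLAU copy lies at chr10:73917334-73917339 (plus strand), base 769 of a 932-base 3' UTR, and the SERPINE2 copy at chr2:223975805-223975810 (minus strand), base 57 of a 185-base 3' UTR.
PLAU: catagatgtcCCTTTCttggccagtt
SERPINE2: aagaaagactCCTTTCctgcatcttt
A match describes letters only, and its part in the change of any gene was not tested.

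Of the proteases, PLAU (ENSG00000122861.15, GRCh38 chromosome 10, 73909177 to 73917497, plus strand) encodes urokinase, which activates plasminogen at the cell surface. It measured 73.5, 80.7 and 76.2 CPM in shNT libraries 1 to 3, from 910 to 1202 reads. In shYES1 libraries 1 to 3 it measured 26.4, 26.8 and 27.7 CPM, from 313 to 542 reads. Every shYES1 library lay far below every shNT library, and the shYES1 libraries lay close together. The mean fell from 76.8 ± 3.66 to 27.0 ± 0.654 CPM, a log2 fold change of -1.51 with SE 0.0495 and an edgeR adjusted p of 1.13e-29. The size of its change exceeded that of 97.2% of the genes tested. C10orf55, annotated on the opposite strand, shares 916 bases with PLAU exons and had 7 to 17 reads per library on its own strand, against at least 313 for PLAU, so antisense reads were few beside the PLAU reads. Without strand, reads in the shared part are ambiguous and PLAU kept 218 to 857 reads per library, with nearly the same fold change (-1.54).

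PLAT (ENSG00000104368.17, chromosome 8, 42175233 to 42207724, minus strand) encodes tPA, the activator best known for dissolving fibrin clots. It had the fewest reads of the members, at 6.71, 6.58 and 6.78 CPM in shNT from 83 to 107 reads. In shYES1 it measured 9.74, 10.2 and 10.7 CPM from 119 to 209 reads. The groups did not overlap, although with so few reads the counting interval of an shNT library reached as high as 8.31 CPM and that of an shYES1 library as low as 8.29 CPM. The mean rose from 6.69 ± 0.0990 to 10.2 ± 0.468 CPM, a log2 fold change of 0.61 with SE 0.105 and an edgeR adjusted p of 1.80e-06. The activator genes thus moved in opposite directions.

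Of the receptors, PLAUR (ENSG00000011422.11, chromosome 19, 43646095 to 43670547, minus strand) encodes uPAR, a lipid-anchored surface protein that holds uPA. It measured 69.6, 68.9 and 74.5 CPM in shNT. In shYES1 it measured 72.8, 72.3 and 70.5 CPM, all inside the shNT range. The change was 0.01 on the log2 scale with SE 0.0407 and an edgeR adjusted p of 0.811, and its 95% interval ran from 0.953-fold to 1.07-fold. With library-size scaling PLAUR passed the test as higher (log2 fold change 0.11, edgeR adjusted p = 0.0168). Its sign turned when TMM factors came only from genes whose 3' UTR lacks CCTTTC (-0.08, adjusted p = 0.0798). Its direction thus depends on the scaling. Genes without CCTTTC had the higher median in these data, so scaling on them lowers all values by construction. The median over all genes was 0.092 with library size only and -0.097 with the CCTTTC scaling, against -0.0047.

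ANXA2 (ENSG00000182718.16, chromosome 15, 60347134 to 60402883, minus strand) encodes annexin A2, a membrane-binding protein that docks tPA and plasminogen. It had the most reads of the members, at 1245, 1256 and 1288 CPM in shNT and 1649, 1623 and 1618 CPM in shYES1. The groups were well apart and each was tight, with a spread of 1.77% of the mean in shNT and 1.03% in shYES1. The mean rose from 1263 ± 22.3 to 1630 ± 16.8 CPM, a log2 fold change of 0.37 with SE 0.0235 and an edgeR adjusted p of 1.15e-18. Near-identical copies can take or lose reads: the processed copy ANXA2P2 had 401 reads over the shNT libraries and 559 over the shYES1 libraries, against 52323 and 77728 for ANXA2, and reads that match both are counted for neither, so these values are uncertain by an amount not measured here.

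SERPINE2 (ENSG00000135919.12, chromosome 2, 223975112 to 224039319, minus strand), the inhibitor among the members, encodes protease nexin-1, which traps uPA, tPA and thrombin. It measured 342, 368 and 359.7 CPM in shNT and 187, 183 and 196 CPM in shYES1. Every shYES1 library was far below every shNT library, and the groups did not overlap. The mean fell from 357 ± 12.9 to 188 ± 6.60 CPM, a log2 fold change of -0.92 with SE 0.0296 and an edgeR adjusted p of 5.58e-30.

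LRP1 (ENSG00000123384.13, chromosome 12, 57128493 to 57213351, plus strand) encodes the large endocytic receptor that clears protease and inhibitor complexes together with uPAR. It measured 376, 349 and 317 CPM in shNT and 388, 397 and 411 CPM in shYES1. The groups did not overlap, but the highest shNT library and the lowest shYES1 library were close, and shNT spread by 8.47% of its mean. The mean rose from 347 ± 29.4 to 398 ± 11.5 CPM, a log2 fold change of 0.20 with SE 0.0628 and an edgeR adjusted p of 0.0294. That call was lost against a minimum change of 1.2-fold (adjusted p = 0.868), with scaling on genes that lack CCTTTC in the 3' UTR (0.247), without shNT library 2 (0.112), without shYES1 library 2 (0.0641) and without shYES1 library 3 (0.0542). The value moved by more than 1.5 times only in the CCTTTC scaling, to 0.11, and that scaling lowers all genes. Without shNT library 3 the value was 0.14 and still passed. LRP1 has a transcript of 14897 bases, and the 450 other tested genes with transcripts of at least 10000 bases were in median 0.03, -0.02 and -0.05 from their own means in shNT libraries 1 to 3 (log2) and 0.003, 0.02 and 0.02 in shYES1. Relative to them LRP1 was 0.18 higher in shYES1 on the log2 scale (exact two-sided permutation p = 0.1, the smallest that 3 against 3 allows), and the part of transcript length in the result was not tested.

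Levels of different genes can be compared only per length. Per kilobase of the annotated transcript with the longest coding part (1444 to 14897 bases), ANXA2 was highest in shNT at 874 ± 15.4 CPM per kilobase, followed by SERPINE2 at 208 ± 7.54, PLAUR at 45.9 ± 1.94, PLAU at 33.1 ± 1.57, LRP1 at 23.3 ± 1.98 and PLAT at 2.57 ± 0.0381. Neighbours in that order differed by more than their spread. In shYES1 the order was ANXA2 at 1129 ± 11.6, SERPINE2 at 110 ± 3.85, PLAUR at 46.4 ± 0.765, LRP1 at 26.7 ± 0.769, PLAU at 11.6 ± 0.282 and PLAT at 3.92 ± 0.180 CPM per kilobase. PLAU thus went from above LRP1 to below it. The middle of the order depends on the length used: per kilobase of all annotated exons, shNT had PLAU at 26.04, LRP1 at 16.7 and PLAUR at 15.9 CPM per kilobase, while ANXA2, SERPINE2 and PLAT kept their places.

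A ratio of read counts within a library does not depend on how the libraries are scaled. The PLAUR to PLAU ratio was 0.947, 0.854 and 0.978 in shNT and 2.76, 2.70 and 2.55 in shYES1. The ratio of receptor to ligand reads was thus higher in every shYES1 library than in every control library, a 2.88-fold shift. Whether it lies below or above 1 does not rank the genes, because their lengths differ. The PLAU to SERPINE2 ratio, a protease beside its inhibitor, was 0.215, 0.220 and 0.212 in shNT and 0.141, 0.147 and 0.142 in shYES1, so the protease reads fell further than the inhibitor reads in every shYES1 library, by 0.59 on the log2 scale in the mean. The ANXA2 to S100A10 ratio, for annexin A2 and its binding partner, was 2.91 ± 0.0790 in shNT and 3.07 ± 0.0215 in shYES1, a shift of only 1.05-fold. For these 3 ratios the groups did not overlap, which gives an exact two-sided permutation p of 0.1, the smallest possible here, and 0.167 adjusted over the 5 ratios computed. The PLAUR to LRP1 ratio (0.206 ± 0.0259 against 0.181 ± 0.00807, exact permutation p = 0.2, adjusted 0.25) and the LRP1 to LRPAP1 ratio (3.02 ± 0.266 against 3.33 ± 0.149, exact permutation p = 0.3, adjusted 0.3) overlapped between groups. Without shNT library 3 these log2 differences shrank from -0.18 to -0.084 and from 0.14 to 0.077. The design of 3 against 3 cannot reach 0.05 in this test.

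**Figure D2:**
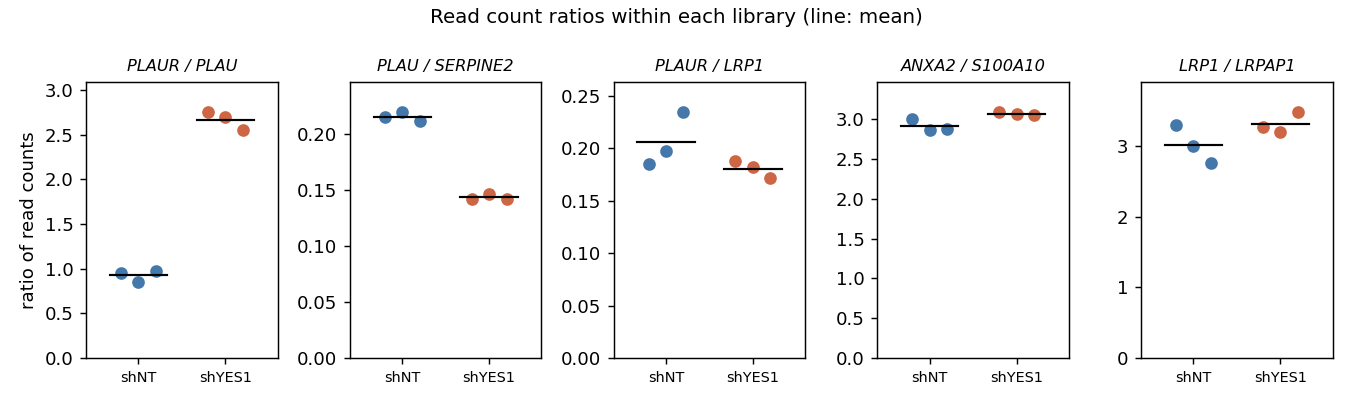
Ratio of read counts of gene pairs (vertical axis, from 0) in each library, in blue for shNT and in orange for shYES1, with the group mean as a line. PLAUR to PLAU is 0.854 to 0.978 in shNT and 2.55 to 2.76 in shYES1, the widest separation of the 5 ratios.

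The wider system was described by 7 lists of related genes, 96 genes in all, of which 70 were tested. Of these 33 rose, 24 fell and 13 did not pass, which is 81.4% called against 65.3% of all genes. The median log2 fold change was 0.08 against -0.0047. The listed genes were not matched to all genes for level of expression, and the part of expression in the called share was not tested.

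Of 14 listed genes for plasminogen, inhibitors and modulators of the system, 6 were tested, and 3 rose, 1 fell and 2 did not pass. Not all of them are described here. THBD, encoding thrombomodulin, rose from 12.6 ± 0.922 to 26.0 ± 0.951 CPM (1.05). SERPINA5, the protein C inhibitor gene, rose from 13.2 ± 0.608 to 23.8 ± 0.587 CPM (0.84), and SRPX2, whose protein binds uPAR, from 94.8 ± 4.40 to 144 ± 1.34 CPM (0.60). SERPINB2, encoding the inhibitor PAI-2, was at 8.71 ± 0.920 and 8.41 ± 0.383 CPM (-0.05, edgeR adjusted p = 0.674), with the sign turning under library-size scaling. SERPINI1, the neuroserpin gene, was at 2.93 ± 0.537 and 2.29 ± 0.141 CPM (-0.34, edgeR adjusted p = 0.112). It passed as lower with the CCTTTC scaling (-0.44, adjusted p = 0.0439) and without shNT library 3 (-0.49, adjusted p = 0.0432), and was -0.20 without shNT library 2. The substrate itself was near 0: PLG had no read in shNT and 1 in shYES1, and A2M, CPB2, HRG and PZP had none in any library.

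Of 10 genes listed for plasminogen and tPA surface receptors and partners of annexin A2, 4 rose, 3 fell and 3 did not pass. The rises include ANXA2P2 (0.27, edgeR adjusted p = 0.0104). It is the processed copy of ANXA2 described above, not a receptor or partner, and may share reads with ANXA2. S100A10, the partner that forms a complex with annexin A2 and binds plasminogen, rose from 434 ± 17.6 to 531 ± 1.79 CPM (0.29), a change that did not pass against a minimum of 1.2-fold. KRT8, a keratin that can bind plasminogen at the surface, rose from 494 ± 3.54 to 721 ± 9.38 CPM (0.54). AHNAK, a giant scaffold protein that binds annexin A2 and S100A10, rose from 638 ± 54.0 to 958 ± 19.2 CPM (0.59). ENO1, a glycolytic enzyme that also serves as a plasminogen receptor, fell from 3795 ± 127 to 3178 ± 11 CPM (-0.26), again not against a minimum of 1.2-fold. HMGB1, a nuclear protein that binds tPA and plasminogen when released, fell from 307 ± 8.64 to 193 ± 1.36 CPM (-0.67), and ANXA2R, an annexin A2 receptor gene, fell from a low 1.51 ± 0.164 to 0.564 ± 0.113 CPM (-1.44).

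**Figure D3:**
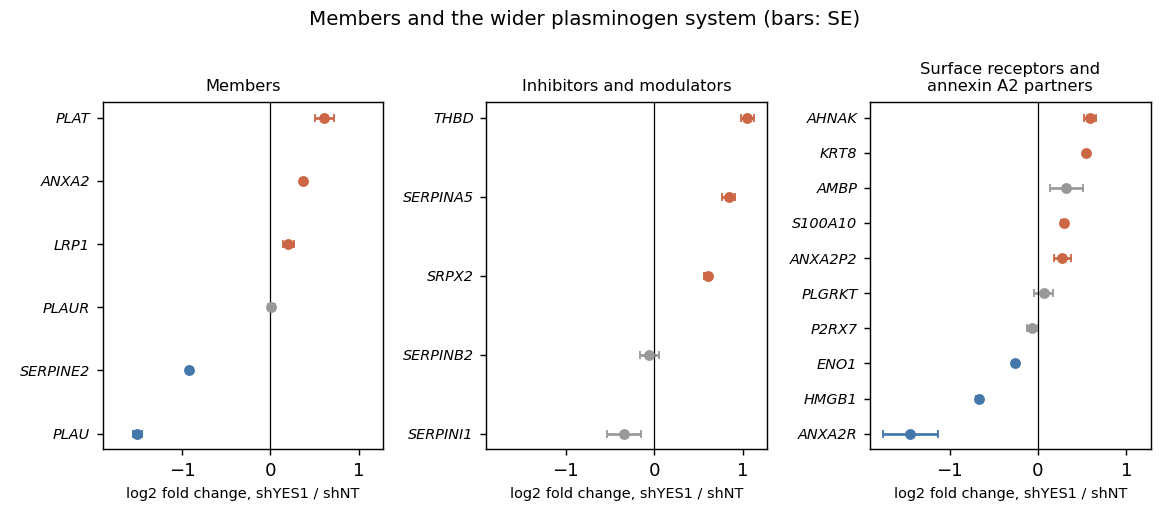
Log2 fold change of shYES1 over shNT (horizontal axis) with its standard error, for the members and for tested genes, not all of them drawn, of the lists of inhibitors and modulators and of surface receptors and annexin A2 partners, in orange for genes called higher, blue for lower and grey for not passing. PLAU at -1.51 and SERPINE2 at -0.92 lie on the lower side among the members.

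Among the 10 other annexin genes tested of 12 listed, 5 rose, 3 fell and 2 did not pass. ANXA11 rose from 112 ± 0.897 to 180.0 ± 3.58 CPM (0.68), ANXA6 from 311 ± 4.10 to 376 ± 4.0 CPM (0.27) and ANXA5 from 678 ± 28.7 to 813 ± 15 CPM (0.26). The calls of ANXA6, ANXA5 and ANXA3 were lost against a minimum of 1.2-fold. The rise of ANXA2 (0.37) lay between those of its relatives. ANXA4 fell from 68.0 ± 0.630 to 46.8 ± 3.76 CPM (-0.52), ANXA3 from 39.5 ± 1.17 to 31.9 ± 1.08 CPM (-0.31) and ANXA8, at only 2.09 ± 0.367 CPM in shNT, fell by 0.54 on the log2 scale (edgeR adjusted p = 0.0382), a call lost in 8 of 16 alternatives. ANXA8 and ANXA8L1 are near-identical copies, so the ANXA8 value is uncertain.

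Around LRP1, 8 of 13 tested genes for other uptake receptors rose, 3 fell and 2 did not pass. VLDLR, which like LRP1 can take up complexes of uPA with its inhibitors, fell from 16.9 ± 0.232 to 2.53 ± 0.612 CPM, a log2 fold change of -2.68 with SE 0.121 and an edgeR adjusted p of 2.41e-24, beside -1.51 for PLAU. MRC2, the collagen receptor that associates with uPAR, fell from 91.5 ± 4.01 to 67.8 ± 3.1 CPM (-0.43). LRP3, at 5.17 ± 0.447 and 4.09 ± 0.264 CPM, fell (-0.35, edgeR adjusted p = 0.0271), a call lost in 9 of 16 alternatives. SORL1, a sorting receptor that also binds uPA complexes, rose from 4.09 ± 0.176 to 10.5 ± 0.491 CPM (1.37), and LRP8 from 58.8 ± 1.28 to 102 ± 2.07 CPM (0.79).

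Of 11 genes for the chaperone, adaptors and processing of LRP1, 7 rose, 2 fell and 2 did not pass. FURIN, the protease that cuts LRP1 into its mature chains, rose from 147 ± 4.23 to 368 ± 2.96 CPM (1.33). The adaptor genes MAPK8IP1, from 5.73 ± 0.0886 to 13.0 ± 1.98 CPM (1.15), and APBB1, from 14.0 ± 0.562 to 27.0 ± 0.344 CPM (0.94), rose. The endocytic adaptor gene DAB2 fell from 85.8 ± 2.06 to 50.9 ± 0.594 CPM (-0.75) and SNX17, which recycles LRP1, from 90.0 ± 3.19 to 62.5 ± 0.598 CPM (-0.53). LRPAP1, encoding the chaperone RAP that escorts LRP1 through the secretory pathway, was at 115 ± 1.2 and 119.9 ± 3.52 CPM (0.06, edgeR adjusted p = 0.127). It passed as higher with library-size scaling (0.15), and its sign turned with scaling on genes that lack CCTTTC in the 3' UTR (-0.03).

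Of 15 tested surface partners of uPAR, 5 rose, 9 fell and 1 did not pass. The integrin genes parted: ITGA5 (1.43) and ITGA3, from 1559 ± 35.8 to 1924 ± 5.20 CPM (0.30), rose, and so did the growth factor receptor gene PDGFRB (1.33). ITGB2, from 5.59 ± 0.273 to 2.14 ± 0.384 CPM (-1.34), and ITGB3, the beta chain of a vitronectin receptor, from 19.8 ± 1.31 to 8.61 ± 0.579 CPM (-1.20), fell. FPR3, of the formyl peptide receptors that uPAR fragments can engage, fell from a low 1.31 ± 0.461 to 0.674 ± 0.290 CPM (-1.05, edgeR adjusted p = 0.00493), though not with DESeq2, without shNT library 3 or without shYES1 library 1.

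Of 17 listed activators of pro-uPA and other surface serine proteases, only 5 were tested, and 1 rose, 3 fell and 1 did not pass. FAP, a surface protease of activated fibroblasts, fell from 127 ± 3.57 to 55.4 ± 1.65 CPM (-1.19) and its relative DPP4 from 209.5 ± 2.25 to 141 ± 5.11 CPM (-0.57). CTSB, a cathepsin that can activate pro-uPA, fell from 1100.0 ± 22.9 to 938 ± 11.1 CPM (-0.23), not passing against a minimum of 1.2-fold. Its relative CTSL rose from 276 ± 6.43 to 403 ± 6.05 CPM (0.54), and SPINT1, an inhibitor of such proteases, was at 2.26 ± 0.214 and 1.86 ± 0.428 CPM (-0.24, edgeR adjusted p = 0.337). ST14, HPN, KLKB1 and F12, whose products can activate pro-uPA or plasminogen, had too few reads to test.

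**Figure D4:**
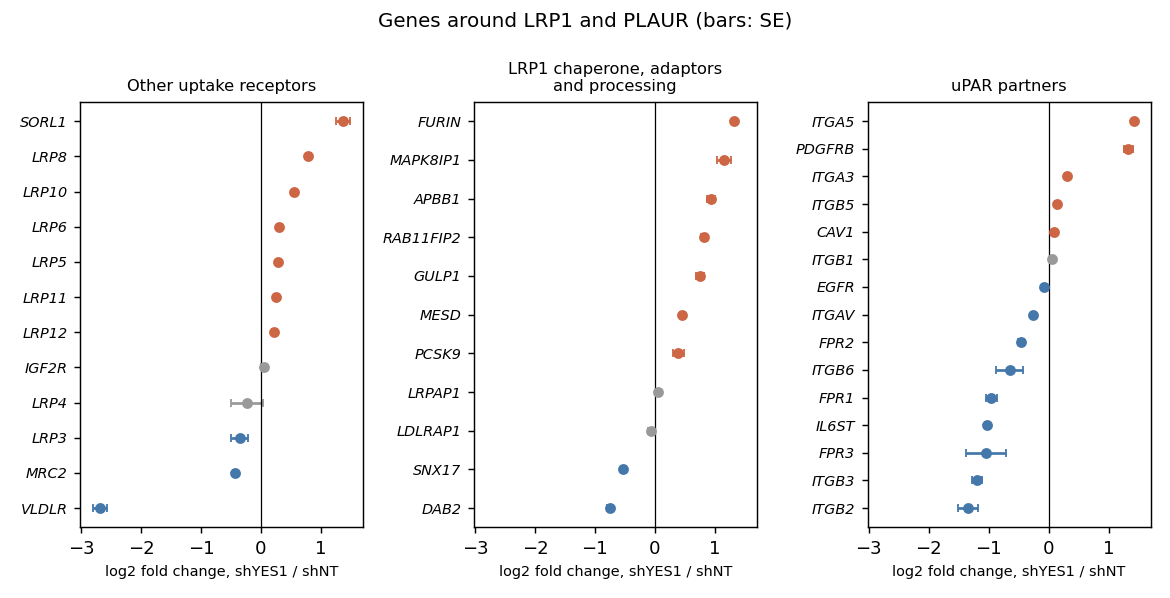
Log2 fold change of shYES1 over shNT (horizontal axis) with its standard error, for tested genes, not all of them drawn, of the uptake receptor, LRP1 chaperone and adaptor, and uPAR partner lists, in orange for genes called higher, blue for lower and grey for not passing. VLDLR at -2.68 lies apart from the other uptake receptors, and FURIN at 1.33 and ITGA5 at 1.43 lead their panels.

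The genes most like each member over the 6 libraries were found by the smallest root mean square difference of mean-centred log2 CPM, among 9393 named genes whose mean reached 5 CPM. PLAU was nearest to PGK1 (0.0255, log2), CHTF8 (0.0268) and EIF3B (0.0283), and SERPINE2 to IFNAR1 (0.0233), CCN2 (0.0238) and NADK (0.025). PLAT was nearest to TPST2, NDUFA4 and GPR137 (0.0163 to 0.0213), and ANXA2 to EIF4G2, CDV3 and DPY19L1 (0.00652 to 0.0117). PLAUR was nearest to RPL35, BRIX1 and ODF2L (0.012 to 0.0152). LRP1 was nearest to TRRAP, MACF1 and BIRC6 (0.0171 to 0.019). With 2 groups of 3 libraries, likeness over 6 libraries mostly reflects a group difference of the same size.

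**Figure D5:**
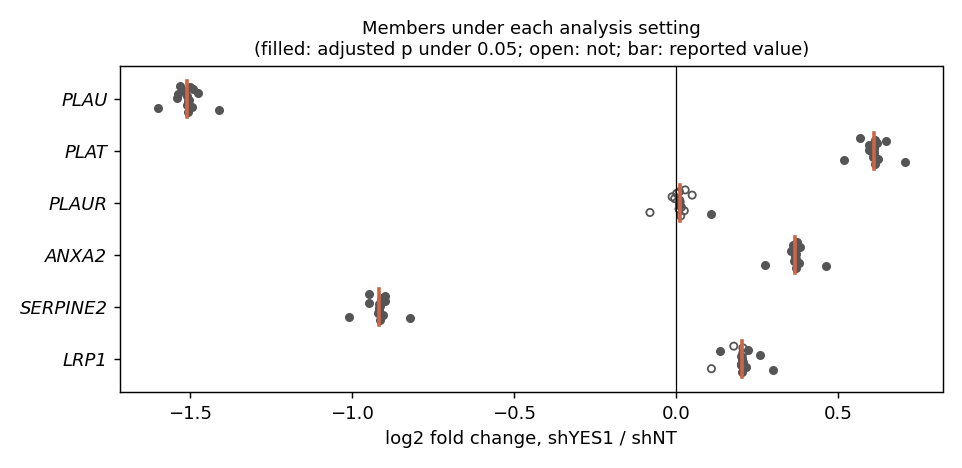
Log2 fold change of each member (horizontal axis) under 16 alternative settings, filled where the adjusted p is under 0.05 and open where it is not, with the reported value as an orange bar. PLAU, SERPINE2, PLAT and ANXA2 keep their side of 0 with filled points throughout, LRP1 is open in 5 settings, and PLAUR straddles 0.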

How the data were processed

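The authors deposited unnormalized read counts for each gene, as whole numbers: unstranded, forward and reverse. STAR 2.5.1b, Trimmomatic 0.35, CASAVA 1.8.2 and the build GRCh38 are named per the submitters' processing notes. The sources used here do not give the annotation release. The reverse-strand column was used, which held 93.5% to 94.0% of stranded gene reads. The 4 entries naming no gene held 19.8% to 20.3% of reads and were left out. Of 58219 identifiers, 57437 matched a symbol and 57878 an entry of GENCODE 29, the source of coordinates and 3' UTRs. Reads that map to several places count nowhere, which lowers near-identical copies.

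Counts were fitted in R 4.3.3 with edgeR 4.0.16 (filterByExpr at a minimum count of 10 and total of 15, TMM factors, quasi-likelihood test with robust dispersion, group only), with Benjamini-Hochberg adjustment over 14239 genes. The standard error is the log2 fold change divided by the square root of F, which is approximate. CPM values use the same factors. Poisson intervals (95%) cover counting error only. The edgeR, DESeq2 and voom steps were tested on simulated counts. Few genes were changed there, with rises and falls equally likely, so the scaling was not tested where most genes are called. Ratios used an exact permutation test over libraries.

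The members, the lists and the alternatives were chosen with earlier results of these data known. The text names the members, YES1, up to 3 rises and 3 falls per list (all tested genes in lists of 8 or fewer), LRPAP1, which is in a ratio, and the 3 genes most like each member. The 10000-base cut for long transcripts was chosen after seeing the data, as were remarks on untested genes and on copies. Alternatives were RLE scaling, library size only, TMM factors from genes without CCTTTC in the 3' UTR, a filter at 1 CPM in 3 libraries, no low-count filter, DESeq2 1.42.0, limma-voom (limma 3.58.1), the replicate number as a block, unstranded counts, a test against 1.2-fold and leaving out each library. Some genes of the lists, which count in the totals, are not reported here.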

Additional observations from a re-analysis of the deposited data

How the results depend on the processing

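PLAU, SERPINE2, PLAT, ANXA2 and YES1 kept their direction and call in all 16 alternatives run for each, with log2 fold changes of -1.60 to -1.41 for PLAU, -1.01 to -0.82 for SERPINE2, 0.52 to 0.71 for PLAT and 0.28 to 0.46 for ANXA2. PLAUR passed with library-size scaling (0.11, adjusted p = 0.0168), and its sign turned with TMM factors from genes without CCTTTC in the 3' UTR (-0.080, adjusted p = 0.0798) and without shNT library 1 (-0.0036) or 2 (-0.012). With a library left out it ranged from -0.012 to 0.050 and its adjusted p from 0.341 to 0.965. LRP1 lost its call with the CCTTTC scaling (0.11, adjusted p = 0.247) and against 1.2-fold (0.20, adjusted p = 0.868). Relative to long transcripts, an alternative chosen after seeing the data, it was 0.18 and the groups did not overlap. The exact permutation p of 0.1 there is the smallest the design allows and says nothing about the call. With a library left out LRP1 ranged from 0.14 to 0.26 and its adjusted p from 1.94e-10 to 0.112. The causes were not tested. The CCTTTC scaling lowers all genes by construction, with a median over all genes of -0.097 against -0.0047. Changes of PLAUR, LRP1, SERPINI1 and LRPAP1 under it are therefore no independent check. Sign changes in uncalled genes were SERPINB2 with library size only (0.043) and without shNT library 3 (0.014, the top of a range from -0.13 over libraries left out), and LRPAP1 with the CCTTTC scaling (-0.034). The test against 1.2-fold, whose null is wider by construction, called 5185 genes, 2324 higher and 2861 lower, and 20 genes of the related lists higher against 33. With library size only 60.7% of calls were higher, against 49.7% with TMM.

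The labels do not say whether the shared replicate numbers pair the libraries. Deviations from the group means of same-numbered libraries correlated across genes at 0.0116, 0.0252 and 0.0122. Not every library correlated best with its own number. With 3 libraries in each group these values cannot settle whether the libraries are paired. With the replicate number as a block 9297 genes were called against 9299, and the members' calls were 3 higher and 2 lower as without it, with LRP1 at 0.20 (adjusted p = 0.00894). The 5 ratios kept their direction with unstranded counts and with each library left out, but without shNT library 3 the PLAUR to LRP1 log2 difference went from -0.18 to -0.084 and that of LRP1 to LRPAP1 from 0.14 to 0.077. Depth limits PLAT most, with 83 to 209 reads a library.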

Other observations

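Genes beside the members on the chromosome did not simply share the members' directions. CAMK2G and VCL, the nearest tested genes on either side of PLAU, rose from 31.1 ± 1.44 to 41.0 ± 0.712 CPM (log2 fold change 0.40) and from 285 ± 5.22 to 348 ± 5.58 CPM (0.29), while PLAU fell. MRPL44 and CUL3, beside SERPINE2, rose from 25.6 ± 1.04 to 34.6 ± 2.47 CPM (0.42) and from 153 ± 3.08 to 243 ± 5.36 CPM (0.66), while SERPINE2 fell. NAB2 and NXPH4, beside LRP1, fell from 25.1 ± 0.842 to 19.0 ± 0.493 CPM (-0.41) and from 50.6 ± 1.01 to 14.0 ± 1.44 CPM (-1.83), while LRP1 rose. KAT6A and IKBKB, beside PLAT, fell by 0.68 and by 0.23 on the log2 scale, while PLAT rose. SMG9, on 1 side of PLAUR, rose from 39.7 ± 0.722 to 49.3 ± 0.531 CPM (0.31), and CADM4, on the other, did not pass (-0.36). RPS3AP6 (-0.02) and ICE2 (-0.08), beside ANXA2, did not pass either. These neighbours were looked up after the members' values were known. They lie 3444 to 577988 bases from their members. STAT6 and C10orf55, which overlap LRP1 and PLAU on the opposite strand, are not among them.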
